A study of Homo sapiens with 6 samples.

Results

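The genes of autophagy, of the lysosome and of the V-ATPase proton pump were followed in cardiomyocytes exposed to alcohol, alone or with losartan. They are 44 genes of the 21134 listed, chosen by symbol for the known role of their products, with earlier results of these data known. All 44 were found under their symbols, and 43 held enough reads to be tested. RNA sequencing gave 6 libraries in 3 groups of 2. The control libraries came from untreated cells. The alcohol libraries came from cells kept in 100 mM alcohol for 24 h. The co-treated libraries came from cells given the same alcohol and 1 μM losartan, a blocker of the angiotensin II type 1 receptor, over the same 24 h, so that all co-treated cells had also been exposed to alcohol. All the cells were called hiPSC-CMs, yet the line named in the labels is H9, a single established line of human embryonic stem cells differentiated into cardiomyocytes in culture, and losartan was not given without alcohol.

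Autophagy is the route by which a cell encloses part of its own cytoplasm in a membrane and delivers it to the lysosome to be broken down. The ULK1 kinase complex and the BECN1 lipid kinase complex start the membrane, a conjugation system like that of ubiquitin attaches small ATG8 proteins to it, receptors such as SQSTM1 bring in the cargo, and acid hydrolases digest it in a lysosome that the V-ATPase keeps acidic. The transcription factors TFEB and TFE3 bind a short motif in the promoters of many of these genes. In heart muscle, whose cells are seldom replaced, this route is known for the removal of worn mitochondria and protein aggregates. The RNA of these genes does not measure the flux through the pathway.

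Levels are given as FPKM, an estimate by the authors of how much of a gene's RNA was read, put per length and per depth of sequencing, and differences as the log2 fold change fitted by edgeR to the estimated counts. The counts of a library summed to between 4898287 and 5051448, and a gene at 0 counts can still hold up to 3, which is 0.594 to 0.612 CPM (counts scaled to a common library size). This floor covers counting error only. All 10 cardiomyocyte markers were above 1 FPKM in every library, and their sum ran from 19054 FPKM in the second alcohol library to 26037 in the first control. TNNT2 lay between 3194 and 3728 FPKM, but MYL2, the ventricular light chain, was at 863 in the second control and 821 in the second alcohol library against 2139 to 2862 in the other libraries. MYL7, the atrial light chain, was at 14512 and 16180 FPKM in the control and lower in all 4 libraries with alcohol, at 9321 to 12612. Of the macrophage markers, a cell type rich in lysosomes, 7 of 8 were listed, and their sum ran from 26.1 to 34.2 FPKM. LYZ held most of it, at 22.6 to 30.2 FPKM, while CD68 lay at 1.72 to 3.13 and PTPRC at 0.98 to 2.08. CD14 was at 0 in 3 libraries and at most 0.27 FPKM in the others, and CSF1R, AIF1 and TYROBP were at most 0.42. The summed FPKM of 10 genes of glycolysis and hypoxia was 3110 and 2712 in the control, 2107 and 1091 in the alcohol and 2572 and 2264 in the co-treated libraries, the second alcohol library being the lowest. LDHA, ENO1, PGK1 and ALDOA held most of this sum. VEGFA and SLC2A1 overlapped between control and alcohol, and the other listed genes were lower in both alcohol libraries. The summed FPKM of 5 smooth muscle markers was 1939 and 1697 in the control, 1463 and 726 in the alcohol and 998.7 and 1045 in the co-treated libraries, so that all 4 libraries with alcohol lay below both controls. ACTA2 and TAGLN held most of this sum. They and MYH11 were lower in all 4 libraries with alcohol, while CNN1 and MYLK overlapped with the controls. The part of these shifts in the results was not tested. In RNA from whole cultures, fewer cells of a type and less RNA per cell cannot be told apart. The labels do not say that the replicates were separate cultures, so the p-values measure the spread between these libraries, which may be technical.

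The short motif recognised by TFEB and TFE3 is shown here for the members that carry it, because 3 of the 6 members with the smallest p in alcohol over control, below, are among them. A promoter of 300 bases, from 250 before to 50 after the RefSeq start (GRCh38.p14, the same assembly as the hg38 of the submitters' processing notes), was at hand for 35 of the 44 members. CACGTG, which reads the same on both strands, was in 7 of the 35 (20%) and in 9.80% of 11766 promoters of genes tested. The longer TCACGTGA, also the same on both strands and always containing CACGTG, was in 4 of the 35 (11.4%) and in 1.79% of the same 11766. The 7 promoters hold the following stretches of 30 bases, written 5′ to 3′ on the strand of the gene, with CACGTG or TCACGTGA in capitals.
ATP6V0D1 (chr16:67481199-67481228, minus strand): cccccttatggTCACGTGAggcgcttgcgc
CTSA (chr20:45891290-45891319, plus strand): tgtCACGTGgcgccggagtTCACGTGActc
LAMP1 (chr13:113297199-113297228, plus strand): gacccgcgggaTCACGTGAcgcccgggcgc
ATG3 (chr3:112561951-112561980, minus strand): CACGTGccgggagagtctagtgTCACGTGA
CTSD (chr11:1763957-1763986, minus strand): gccggccgcgccCACGTGaccggtccgggt
ATP6V0B (chr1:43974900-43974929, plus strand): ggtCACGTGgtaccggcgcatCACGTGggc
ATG14 (chr14:55411834-55411863, minus strand): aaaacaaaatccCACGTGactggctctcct
The stretches lie just before the annotated start, except that of ATG3, which runs across it from 18 bases before. LAMP1 held 6 copies of CACGTG within its 300 bases, more than any other of the 35, and those nearest to the start were of the longer form, beginning 29 and 2 bases before it. The promoters of SQSTM1, TFEB and TFE3 held no such motif in this window, which says nothing about the binding of a factor. The other pathway genes, listed below, held CACGTG in 23 of 109 promoters (21.1%) and TCACGTGA in 11 (10.1%).

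The members were well expressed in these cells, and over a wide range of levels. GABARAP, one of the ATG8 proteins attached to the autophagosome membrane, was the highest, at 198.6 and 183 FPKM in the control, 209 and 209 in the alcohol and 196 and 203 in the co-treated libraries. GABARAPL2, of the same family, followed with a mean of 118 FPKM over the 6 libraries, and then CTSB, the lysosomal cysteine protease cathepsin B, with 106. At the other end stood GLA, the lysosomal α-galactosidase A, with a mean of 6.05 FPKM, and CTSK, the cathepsin of bone-resorbing cells. CTSK lay at 0.44 and 0.55 FPKM in the control, 0.98 and 0.90 in the alcohol and 0.79 and 0.66 in the co-treated libraries, from 4 to 9 counts each, and was too low to be tested.

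**Figure D1:**
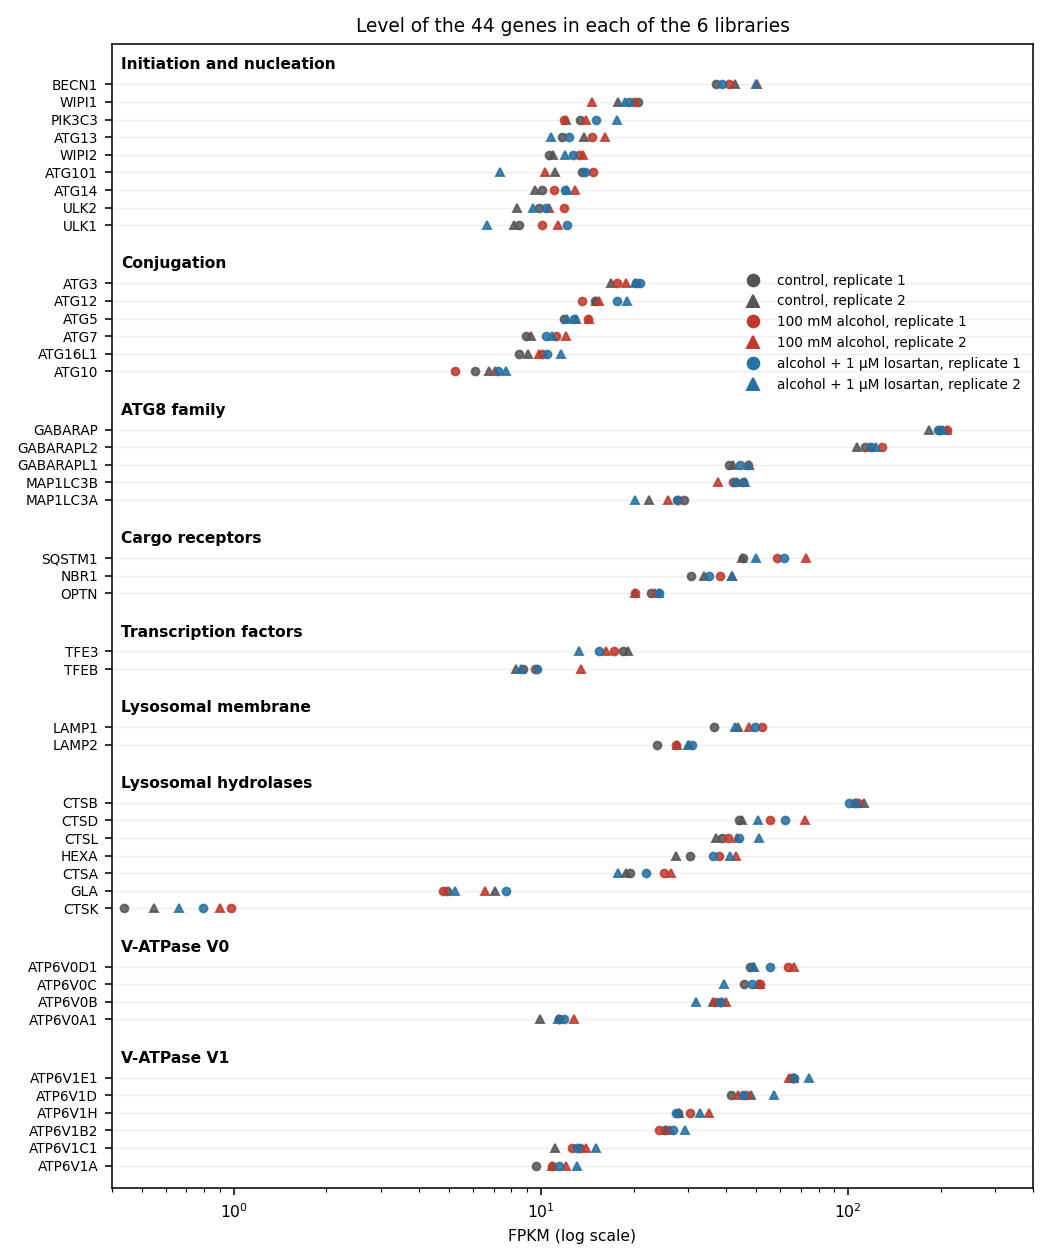
Level of each of the 44 genes (rows, grouped by role) in FPKM on a log scale; circles are replicate 1 and triangles replicate 2 of the control, alcohol and co-treated groups. GABARAP is the highest in every library and CTSK the lowest, and for most genes the 6 points lie close together beside the distance between genes.

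Where a protein is encoded by several genes, the libraries showed how the RNA was divided among those followed here. GABARAP held 45.7 to 47.8% of the summed FPKM of the 5 ATG8 genes among the members, GABARAPL2 26.5 to 28.4%, and MAP1LC3B, the LC3 gene most used as a marker of autophagosomes, 8.61 to 10.9%. Of the V-ATPase subunits with more than 1 gene, ATP6V0D1 held 98.7 to 99.9% of the d subunit, ATP6V1B2 99.2 to 100% of the B subunit and ATP6V1E1 95.3 to 98.3% of the E subunit. The a subunit was divided, with 41.1 to 54.0% from ATP6V0A1, 28.8 to 34.6% from ATP6V0A2 and 14.4 to 23.7% from TCIRG1. The C subunit was the exception, since the member ATP6V1C1 held only 28.3 to 33.2% and ATP6V1C2 the rest. ATP6V1C2 overlaps PDIA6, a gene at 99.6 FPKM on average, and the sources do not say whether the counting used the strand, so its share is uncertain.

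**Figure D2:**
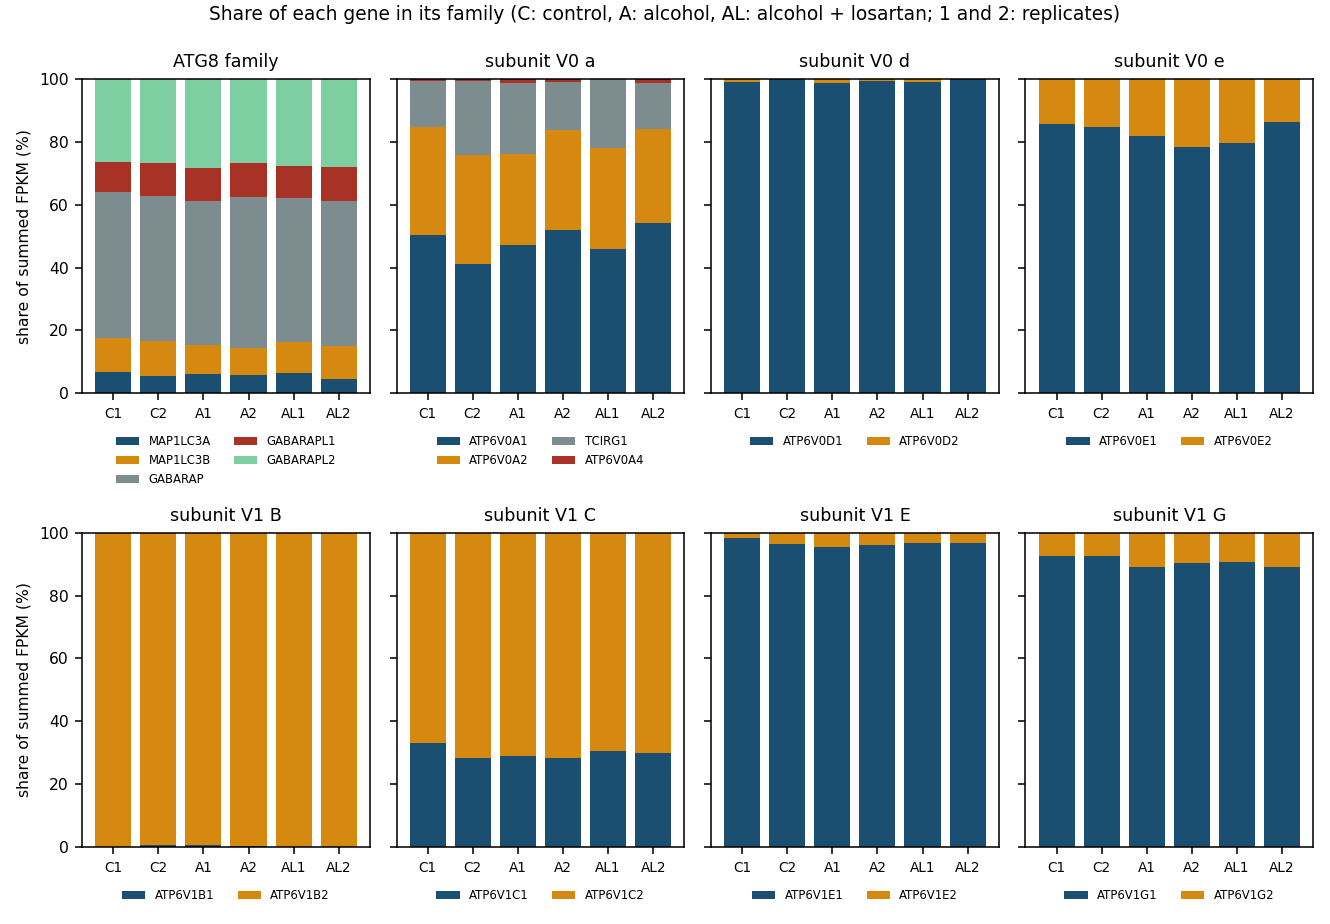
Share of each gene in the summed FPKM of the genes shown with it (vertical axis, percent) in each library, for the ATG8 genes among the members and 7 V-ATPase subunits. GABARAP takes 45.7 to 47.8% of the ATG8 genes shown in every library, ATP6V0D1, ATP6V1B2 and ATP6V1E1 nearly all of their subunits, and the a and C subunits are divided.

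The first comparison asked how these genes differed between the alcohol and the control libraries. No member passed the test (edgeR's quasi-likelihood F test, two-sided, Benjamini-Hochberg adjusted p under 0.05 over 14926 genes), while 0.067% of all genes did, 10 in number. DESeq2 and limma likewise called 0 members. At an unadjusted p under 0.05 stood 6 of the 43 members, and 11% of all genes. All 6 were higher with alcohol, where 5.27% of all genes were higher and 5.78% lower at that p. Without the second alcohol library 4 members had such a p, all higher, and 5.42% of all genes, and the median given next was again 0.12. The median log2 fold change of the members was 0.12, against −0.0033 over all genes, and 29 of 43 lay above 0, against 49.4% of all genes. In 23 members both alcohol libraries lay above both control libraries (24.7% of all genes) and in 2 both lay below (17.7%). All 43 intervals lay within 1 log2 unit of 0, and 34 of them lay within a 1.5-fold difference. The summed FPKM of the 44 genes was 1390 and 1386 in the control and 1526 and 1580 in the alcohol libraries, which did not overlap. These sums were not normalised for the make-up of the library, as the fitted values were. On log2(FPKM + 1) the median over all genes was itself 0.030 for alcohol over control.

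The 6 members were a cargo receptor, 3 lysosomal hydrolases, a V-ATPase subunit and a nucleation gene. SQSTM1 (chr5:179806393-179838078) encodes p62, which binds ubiquitinated cargo and is itself degraded by autophagy. It lay at 45.3 and 44.9 FPKM in the control, 58.5 and 72.65 in the alcohol and 61.5 and 50.03 in the co-treated libraries. Both alcohol libraries stood above the controls, the second of them furthest, and the co-treated ones lay between, overlapping with alcohol. The log2 fold change of alcohol over control was 0.50 ± 0.13 (SE), or 1.41-fold, with an adjusted p of 0.173 and an unadjusted p of 0.00226. Without the second alcohol library it was 0.38, and without the first 0.62. SQSTM1 overlaps MGAT4B, at 37.8 FPKM on average, and MRNIP.

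CTSD (chr11:1752755-1763927), the aspartic protease cathepsin D, resembled SQSTM1 from library to library. It lay at 44.1 and 45.0 FPKM in the control, 55.6 and 72.5 in the alcohol and 62.1 and 50.9 in the co-treated libraries. The alcohol libraries were again above both controls and again far from each other. Its log2 fold change was 0.48 ± 0.14 (SE), with an adjusted p of 0.193, and 0.32 without the second alcohol library against 0.64 without the first. The last of these had the lowest adjusted p of any member in any of the 14 alternative settings, 0.0599.

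ATP6V0D1 (chr16:67438019-67481157), the d subunit that joins the membrane ring of the pump to its stalk, had the smallest p of the V-ATPase members. It lay at 47.9 and 49.5 FPKM in the control, 63.6 and 66.7 in the alcohol and 55.5 and 49.1 in the co-treated libraries. The alcohol pair stood clear of all the others. Its log2 fold change of alcohol over control was 0.38 ± 0.12 (SE), with an adjusted p of 0.244, and it was 0.39 with either alcohol library left out. CTSA (chr20:45891335-45898820), protective protein/cathepsin A, a carboxypeptidase that stabilises lysosomal glycosidases, followed the same order. It lay at 19.5 and 18.9 FPKM in the control, 25.1 and 26.4 in the alcohol and 21.95 and 17.7 in the co-treated libraries. The alcohol pair was the highest of the 3 pairs without overlap. Its log2 fold change was 0.38 ± 0.13 (SE), with an adjusted p of 0.298, and 0.39 with either alcohol library left out. CTSA overlaps PLTP, at 13.7 FPKM on average.

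HEXA (chr15:72340924-72376014), the α subunit of β-hexosaminidase, differed from ATP6V0D1 and CTSA in that the co-treated libraries stayed near the alcohol ones. It lay at 30.6 and 27.5 FPKM in the control, 37.85 and 43.04 in the alcohol and 36.2 and 41.1 in the co-treated libraries. All 4 libraries with alcohol lay above both controls, as they did in SQSTM1, CTSD and WIPI2. Its log2 fold change was 0.37 ± 0.12 (SE) for alcohol over control, with an adjusted p of 0.282, 0.32 without the second alcohol library, and 0.33 ± 0.12 (SE) for co-treated over control, with an adjusted p of 0.289. WIPI2, which binds phosphatidylinositol 3-phosphate on the growing membrane and recruits ATG16L1, lay at 10.6 and 10.9, 13.3 and 13.7, and 12.7 and 11.98 FPKM in the same order. Its alcohol pair was above the controls by a log2 fold change of 0.29 ± 0.13 (SE), with an adjusted p of 0.434.

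**Figure D3:**
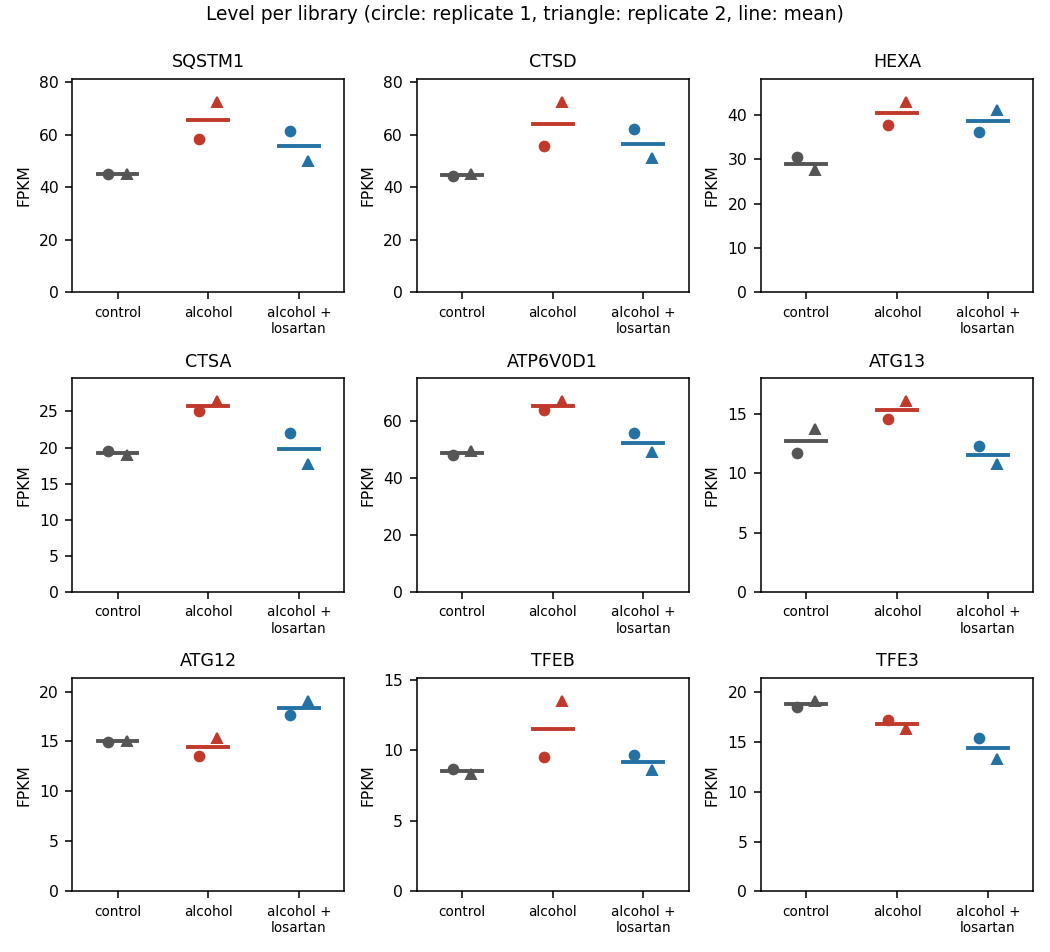
FPKM (vertical axis, from 0) of 9 members in each library, with the mean of each pair as a line. In SQSTM1, CTSD, HEXA, CTSA, ATP6V0D1, ATG13 and TFEB the alcohol pair has the highest mean. In SQSTM1, CTSD and HEXA all 4 libraries with alcohol lie above the controls. In TFE3 the level is lowest in the co-treated pair.

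Among the 9 genes of initiation and nucleation, 6 had a log2 fold change above 0 and the median was 0.19. ULK1, the kinase that starts autophagy, lay at 8.50 and 8.15 FPKM in the control, 10.1 and 11.4 in the alcohol and 12.2 and 6.66 in the co-treated libraries. The co-treated replicates of ULK1 were thus further apart than the groups, and its log2 fold change of alcohol over control was 0.32 ± 0.21 (SE), with a 95% interval of −0.13 to 0.78. BECN1, the core of the lipid kinase complex, lay at 37.2 and 42.9, 41.0 and 50.6, and 38.8 and 49.98 FPKM, and the 3 groups overlapped. Of the rest, ATG14, which directs the lipid kinase to autophagy, and ULK2, a relative of ULK1, were higher in both alcohol libraries, by 0.24 and 0.19, and WIPI1, ATG101 and PIK3C3 overlapped, with values between −0.16 and −0.0026. ATG101, a small subunit of the ULK1 complex, varied most between libraries among the members tested, from 7.36 to 14.8 FPKM. In the conjugation system the 6 genes had a median of 0.03. ATG7, the enzyme that activates both ATG12 and the ATG8 proteins, was the nearest to the threshold, with 8.95 and 9.26 FPKM in the control, 11.2 and 12.1 in the alcohol and 10.4 and 10.9 in the co-treated libraries, a log2 fold change of 0.29 ± 0.13 (SE) and an adjusted p of 0.452. Both pairs with alcohol lay above the controls. ATG3, the enzyme that passes the ATG8 proteins to the lipid and the highest of the class, lay at 20.4 and 16.9, 17.6 and 18.8, and 20.95 and 20.2 FPKM, without a separation of alcohol and control. ATG5, the partner to which ATG12 is joined, was higher in both alcohol libraries by 0.14, while ATG12 and ATG10, the enzyme that joins them, overlapped.

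The ATG8 family had log2 fold changes between −0.19 and 0.15. GABARAPL1 lay at 40.8 and 42.2 FPKM in the control, 47.1 and 47.35 in the alcohol and 44.4 and 47.35 in the co-treated libraries, both pairs above the controls, with a log2 fold change of 0.15 ± 0.12 (SE) for alcohol. MAP1LC3B, in the other direction, lay at 45.3 and 43.4, 42.0 and 37.7, and 42.8 and 46.0 FPKM, the alcohol pair below the controls by a log2 fold change of −0.19 ± 0.13 (SE), with a 95% interval of −0.47 to 0.08, and by −0.08 without the second alcohol library. With TFE3 it made up the 2 members in which both alcohol libraries were below both controls. NBR1, a second receptor of ubiquitinated cargo, lay at 30.8 and 33.8, 38.2 and 41.7, and 35.1 and 41.7 FPKM. Both pairs with alcohol were above the controls, and the log2 fold change for alcohol was 0.26 ± 0.12 (SE), with an adjusted p of 0.460. OPTN, the third receptor, and MAP1LC3A overlapped between alcohol and control, with values of −0.02 and 0.02, and GABARAP and GABARAPL2 were higher in both alcohol libraries by 0.09 and 0.13.

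The fold changes of the 2 transcription factors had opposite signs, neither of them past the test. TFEB (chr6:41683978-41736223) lay at 8.70 and 8.30 FPKM in the control, 9.53 and 13.5 in the alcohol and 9.69 and 8.63 in the co-treated libraries. The second alcohol library stood alone, and the first was close to a co-treated one. The log2 fold change of alcohol over control was 0.39 ± 0.19 (SE), with an adjusted p of 0.480, and 0.18 without the second alcohol library. TFE3 (chrX:49028726-49043357) lay at 18.5 and 19.1 FPKM in the control, 17.25 and 16.3 in the alcohol and 15.4 and 13.3 in the co-treated libraries. No 2 of its groups overlapped, control being the highest and co-treated the lowest. Its log2 fold change was −0.20 ± 0.13 (SE) for alcohol over control, with an adjusted p of 0.650, and −0.12 without the second alcohol library.

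At the lysosomal membrane, LAMP1, one of the abundant glycoproteins that line it, lay at 36.5 and 43.8 FPKM in the control, 52.2 and 47.3 in the alcohol and 49.6 and 42.8 in the co-treated libraries. The alcohol pair was above the controls by a log2 fold change of 0.27 ± 0.13 (SE), with an adjusted p of 0.478, and by 0.17 without the first alcohol or the first control library. The co-treated pair overlapped with both. LAMP2, whose loss causes Danon disease with its cardiomyopathy, lay at 23.9 and 27.6, 27.4 and 30.3, and 30.9 and 30.15 FPKM, with a log2 fold change of 0.11 ± 0.12 (SE). Not all hydrolases lay higher, since CTSB lay at 105 and 113 FPKM in the control, 108 and 105 in the alcohol and 101 and 107 in the co-treated libraries. Its 95% interval for alcohol over control, −0.32 to 0.19, leaves room for a difference in either direction. CTSL, cathepsin L, lay at 38.8 and 37.0, 40.6 and 43.4, and 43.9 and 51.4 FPKM, in an order unlike that of CTSA, the co-treated pair being the highest. GLA overlapped in all comparisons and had the widest interval of the members tested in alcohol over control, from −0.80 to 0.55.

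The 4 genes of the pump's membrane part, V0, had log2 fold changes of alcohol over control between 0.02 and 0.38, with ATP6V0D1 at the upper end, and the 6 of its cytosolic part, V1, between −0.05 and 0.19, in ranges that overlapped. Besides ATP6V0D1, only ATP6V0C, which forms the proton-carrying ring, was higher in both alcohol libraries among the V0 genes, by 0.06, and ATP6V0A1 and ATP6V0B overlapped with the control, as did ATP6V1B2, ATP6V1C1, ATP6V1D and ATP6V1E1 of the V1 genes. ATP6V1E1, a stalk subunit and the highest of the V1 genes, lay at 65.6 and 66.3 FPKM in the control, 66.3 and 64.3 in the alcohol and 66.6 and 74.5 in the co-treated libraries. ATP6V1A, the catalytic subunit that splits ATP, lay at 9.64 and 10.8, 10.9 and 12.04, and 11.4 and 13.1 FPKM, and ATP6V1H, a regulatory subunit, at 28.0 and 28.2, 30.4 and 35.3, and 27.5 and 32.8 FPKM. Both were above the controls in both alcohol libraries, but by less than their intervals, which for ATP6V1H ran from −0.11 to 0.48.

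**Figure D4:**
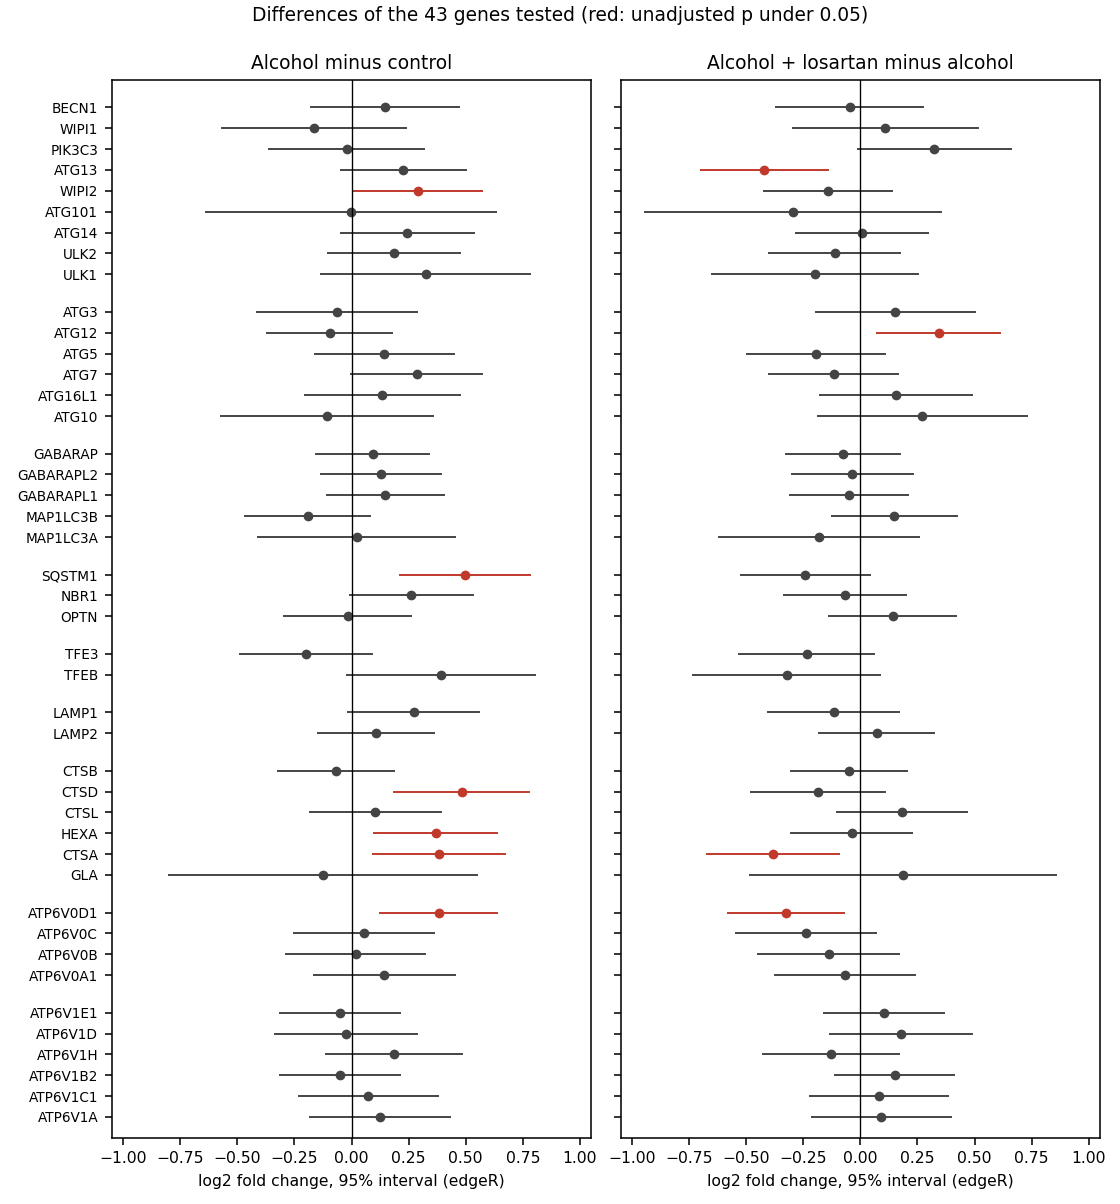
Log2 fold change of the 43 members tested, with the 95% interval of edgeR, for alcohol minus control (left) and co-treated minus alcohol (right); red marks an unadjusted p under 0.05. All the intervals lie within 1 log2 unit of 0, and 6 members on the left and 4 on the right are red.

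The second comparison asked how the libraries differed where losartan was added to the alcohol. No member passed the test, and 0.0134% of all genes did, 2 in number. DESeq2 and limma also called 0 members. At an unadjusted p under 0.05 stood 4 of the 43, against 5.55% of all genes, with 1 higher (2.84%) and 3 lower (2.71%) in the co-treated libraries. The median log2 fold change was −0.05, against 0.0023 over all genes, and 17 of 43 lay above 0, against 50.3%. Without the first co-treated library the median was 0.0068, and without the second co-treated library it was −0.04. In 10 members both co-treated libraries lay above both alcohol libraries (18% of all genes) and in 10 both lay below (14.3%). All 43 intervals again lay within 1 log2 unit of 0, 33 of them within a 1.5-fold difference.

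ATG13 (chr11:46617553-46674518), the adaptor of the ULK1 complex, had the smallest p here. It lay at 11.7 and 13.8 FPKM in the control, 14.6 and 16.1 in the alcohol and 12.3 and 10.8 in the co-treated libraries. The co-treated pair was below both alcohol libraries and overlapped with the controls. The log2 fold change of co-treated over alcohol was −0.42 ± 0.13 (SE), with an adjusted p of 0.796. CTSA and ATP6V0D1, whose library values are given above, were likewise lower in both co-treated libraries than in both alcohol libraries. For CTSA the log2 fold change was −0.38 ± 0.13 (SE), with an adjusted p of 0.836, and −0.25 without the second co-treated library, and for ATP6V0D1 −0.33 ± 0.12 (SE), with an adjusted p of 0.853. Their values for co-treated over control were 0.0011 ± 0.14 (SE) and 0.06 ± 0.12 (SE), and both intervals included 0. With 1 co-treated library left out, these ran from −0.14 to 0.13 for CTSA and from −0.02 to 0.13 for ATP6V0D1. Since these comparisons share the alcohol libraries, a high value there enters both with opposite signs.

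ATG12, the ubiquitin-like partner of ATG5, was the 1 member of the 4 that lay higher in the co-treated libraries. It lay at 15.0 and 15.1 FPKM in the control, 13.6 and 15.4 in the alcohol and 17.6 and 19.1 in the co-treated libraries, and both co-treated libraries lay above all the others. Its log2 fold change over alcohol was 0.34 ± 0.13 (SE), with an adjusted p of 0.857. PIK3C3, the catalytic lipid kinase that works with BECN1, had a similar order, at 13.4 and 12.05, 11.9 and 13.95, and 15.1 and 17.6 FPKM, with a log2 fold change of 0.32 ± 0.15 (SE) and an adjusted p of 0.899, and 0.17 without the second co-treated library. SQSTM1 had −0.24 ± 0.13 (SE), TFE3 −0.24 ± 0.14 (SE) and TFEB −0.32 ± 0.19 (SE), with adjusted p of 0.912, 0.915 and 0.915. The value of TFEB was −0.11 without the second alcohol library and −0.52 without the first. That of SQSTM1 was −0.12 without the second alcohol and −0.11 without the second co-treated library, and −0.37 and −0.38 without the first of each. That of TFE3 was −0.15 without the second co-treated library. By role, all 4 V0 genes had a value below 0 and 5 of the 6 V1 genes a value above 0. None of the V1 genes reached an unadjusted p under 0.05. Without the second co-treated library ATP6V1A, ATP6V1C1 and ATP6V1D fell below 0, at −0.03, −0.04 and −0.01. ATP6V1B2 and ATP6V1E1 then stayed above 0, at 0.07 and 0.0035, and the V0 genes stayed below it. The difference between the parts was not tested.

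The third comparison set the co-treated libraries against the controls, and so covers alcohol and losartan together. No member passed the test, while 0.362% of all genes did, 54 in number. DESeq2 and limma also called 0 members. At an unadjusted p under 0.05 stood 3 of the 43, where 12.6% of all genes stood there, with 2 higher (6.26%) and 1 lower (6.37%). Without the first co-treated library the median given next was 0.12, and without the second control library it was 0.07. The median was 0.10, against −0.0017 over all genes, and 33 of 43 lay above 0, against 49.8%. In 19 members both co-treated libraries lay above both controls (27.1% of all genes) and in 1 both lay below (16.3%). TFE3 was this 1 member, with a log2 fold change of −0.44 ± 0.14 (SE), an adjusted p of 0.196 and a 95% interval of −0.73 to −0.14. HEXA, given above, and CTSL were the 2 that were higher, CTSL by 0.29 ± 0.13 (SE), with an adjusted p of 0.394. CTSD had 0.30 ± 0.14 (SE), SQSTM1 0.26 ± 0.13 (SE), PIK3C3 0.30 ± 0.15 (SE) and ATG12 0.25 ± 0.12 (SE), with adjusted p between 0.398 and 0.454. These values moved with the co-treated libraries. Without the first of them CTSD had 0.16 and SQSTM1 0.12, and without the second CTSL had 0.16, PIK3C3 0.15 and SQSTM1 0.39. ATG16L1, which guides the ATG8 proteins to the membrane, lay at 8.46 and 9.04 FPKM in the control, 10.05 and 9.81 in the alcohol and 10.4 and 11.6 in the co-treated libraries, the controls being the lowest, with 0.29 ± 0.16 (SE) and an adjusted p of 0.478.

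The members that carry CACGTG in the promoters shown above may be set beside those that do not. In alcohol over control the 7 with the motif had log2 fold changes from −0.06 to 0.48 and a median of 0.27, and 6 of them lay above 0. The 28 without it ran from −0.20 to 0.50, with a median of 0.12 and 17 above 0. In co-treated over alcohol the medians were −0.14 and −0.06, and in co-treated over control 0.09 and 0.10. The ranges overlapped in every comparison. SQSTM1, the member with the smallest p in alcohol over control, was among those without the motif, and ATG3 and ATP6V0B carried it with log2 fold changes of −0.06 and 0.02. These are descriptions of few genes, with no test. The motif was shown because some of the members with the smallest p in alcohol over control carry it. The medians of that comparison are therefore not independent of the choice of motif.

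The median absolute difference between the replicates of the members was 0.12 log2 units in the control, 0.11 in the alcohol and 0.17 in the co-treated group, against 0.18, 0.19 and 0.21 over all genes tested. The members took 0.319 and 0.325% of the counts in the control, 0.353 and 0.371% in the alcohol and 0.350 and 0.352% in the co-treated libraries, so that all 4 libraries with alcohol lay above both controls. This share was not normalised for the make-up of the library, as the fitted values were, and no share of other genes was set beside it. Of the 44 members, 13 overlap another listed gene in RefSeq, which can add to their counts where strand was not used. The greatest imbalance was in WIPI1, a phosphoinositide-binding relative of WIPI2, with a mean of 18.6 FPKM beside PRKAR1A with 198, and in GLA, within the read-through gene RPL36A-HNRNPH2.

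A wider list of 138 other genes of the same pathways, of which 133 were tested, was set beside the members. None was called by edgeR in any of the 3 comparisons, nor by limma. Over the alternatives 2 calls were made, and the genes are named after their values were seen. CALCOCO2, another cargo receptor, was called by edgeR for alcohol over control without the first alcohol library, with a log2 fold change of 0.82. It had 0.56 with all libraries and 0.26 without the second alcohol library. Its levels were 10.4 and 12.9 FPKM in the control and 13.8 and 21.4 in the alcohol libraries. SORT1 was called for co-treated over control by DESeq2, with −0.50 and an adjusted p of 0.0238. In alcohol over control 19 had an unadjusted p under 0.05, or 14.3% against 11% of all genes, with 16 of them higher, the median log2 fold change was 0.11 and 93 lay above 0, or 69.9% against 49.4% of all genes. In co-treated over alcohol 6 had such a p, or 4.51% against 5.55% of all genes, with 1 of them higher, and the median was −0.03. In co-treated over control 23 had such a p, or 17.3% against 12.6% of all genes, with 17 of them higher, and the median was 0.10. Among 46 other lysosomal genes 7 were higher and 1 lower at this p with alcohol, and among 35 other autophagy genes 5 were higher and 0 lower, where 5.27% of all genes were higher and 5.78% lower.

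The genes with the smallest p of these lists in alcohol over control were mostly higher in both alcohol libraries. GAA, the acid α-glucosidase whose loss causes Pompe disease, lay at 8.13 and 8.27 FPKM in the control, 12.9 and 13.5 in the alcohol and 11.7 and 9.86 in the co-treated libraries, with a log2 fold change of 0.62 ± 0.15 (SE) and an adjusted p of 0.147. ROGDI, a partner of the pump's assembly factors, lay at 47.9 and 51.0, 68.8 and 76.3, and 65.3 and 60.0 FPKM, with 0.51 ± 0.12 (SE) and an adjusted p of 0.121. In both genes all 4 libraries with alcohol were above both controls. ATP6V0E2, an e subunit of the pump, FYCO1 and VPS39 had 0.65 ± 0.17 (SE), 0.47 ± 0.12 (SE) and 0.45 ± 0.12 (SE), with adjusted p of 0.167, 0.151 and 0.170. FYCO1 links autophagosomes to kinesin, and VPS39 belongs to the HOPS complex that tethers them to lysosomes. IDUA, α-L-iduronidase, had 1.07 ± 0.33 (SE) from 2.87 to 3.13 FPKM in the control and 6.44 to 6.55 in the alcohol libraries, with an adjusted p of 0.241.

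The list of mTORC1 and TFEB control, which also holds MITF, FOXO1 and FOXO3, gave 4 of 34 tested at an unadjusted p under 0.05 with alcohol. They were 2 in each direction, or 11.8% against 11% of all genes. The lowest log2 fold change of the list was −0.46, and the 2 genes with the smallest p, given next, were both higher. FLCN, which with its partners keeps TFEB under the control of mTORC1, had 0.49 ± 0.15 (SE) and FOXO3, a transcription factor of autophagy genes in muscle, 0.54 ± 0.19 (SE), with adjusted p of 0.244 and 0.298. FOXO3 had 0.27 without the second alcohol library, 0.33 without the first control and 0.81 without the second control. In co-treated over alcohol the smallest p of the lists belonged to PLEKHM1, an adaptor of late endosomes and lysosomes, with −0.52 ± 0.20 (SE), ATG4B, the protease that trims ATG8 proteins, with −0.37 ± 0.15 (SE), AKT1S1, an inhibitor in mTORC1, with −0.46 ± 0.20 (SE), and LAMTOR1, the lysosomal anchor of mTORC1, with −0.35 ± 0.15 (SE). ATP6AP1, an accessory subunit of the pump, and DMXL2, one of its assembly factors, had −0.28 ± 0.12 (SE) and 0.27 ± 0.12 (SE), and SMPD1, the acid sphingomyelinase, and IDUA −0.31 ± 0.16 (SE) and −0.61 ± 0.31 (SE). Their adjusted p ran from 0.857 to 0.900. Without the second co-treated library AKT1S1 had −0.30, ATG4B −0.22, LAMTOR1 −0.17 and IDUA −0.16. Without the first, LAMTOR1 had −0.57 and IDUA −1.26, and DMXL2 had 0.16 without the first alcohol library. In co-treated over control SORT1, a sorting receptor for lysosomal enzymes, lay at 49.7 and 49.2 FPKM in the control, 42.2 and 39.2 in the alcohol and 35.5 and 37.1 in the co-treated libraries, in 3 groups without overlap, with −0.49 ± 0.12 (SE) and an adjusted p of 0.0924. CTSO, cathepsin O, had 0.78 ± 0.29 (SE), RRAGD, a Rag GTPase of mTORC1, 0.37 ± 0.11 (SE) and SESN2, which restrains mTORC1, −0.66 ± 0.19 (SE), with adjusted p of 0.277, 0.178 and 0.171. CTSO had 0.45 without the second co-treated library.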

How the data were processed

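RNA sequencing libraries of untreated, alcohol-treated and co-treated hiPSC-CMs (2 each, 6 in all) were grouped by the treatment in the labels. For every library the deposited files hold the expected count of each gene, which the authors estimated and which need not be whole (33.9% were not), and the FPKM, which the authors derived from it by length and depth. Per the submitters' processing notes HISAT2 2.0.4, Bowtie2 2.2.5, RSEM 1.2.12 and hg38 were used; the annotation and the use of strand are not given in the sources used here.

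Expected counts were rounded and all 6 libraries were fitted together (edgeR 4.0.16, quasi-likelihood F test, two-sided, TMM, filterByExpr, R 4.3.3), with Benjamini-Hochberg adjustment over 14926 genes at 0.05. Members were read off this fit, and lists got counts and medians only. DESeq2 1.42.0 and limma 3.58.1 served as alternatives, with other size factors, filters, the replicate number as a block, fewer libraries and FPKM (pseudocounts of 1 and 0.1). On simulated data for alcohol over control (14716 genes) the fit found 67.7% of the genes set to differ by 1 log2 unit and 86% of those set to differ by 2, with 11 false calls. Replicates of a group were not alike within sampling noise (chi-square 4.46 to 7.30 per degree of freedom).

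The members, lists and motifs were chosen with earlier results of these data known. Genes were named by rule: for each comparison the 8 members with the smallest p, the highest member of each class, usual readouts of the pathway, and the 2 genes with the smallest p of each further list (4 lists, 138 of 139 genes listed). WIPI1, OPTN, GLA, GABARAPL2, ATP6V1C1 and other genes of shares, promoters and overlaps were named where those are described. Promoters and overlaps come from RefSeq GRCh38.p14; 9 members without a promoter entry were left out there.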

Additional observations from a re-analysis of the deposited data

How the results depend on the processing

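No member was called in any of the 14 alternatives per comparison. Of 336 log2 fold changes under them 0 were reversed, but these cover only the members with the smallest p in each comparison. That count cannot speak for the other members, since it left them out. Some of those named above did change sign. ATG3 in alcohol over control went from −0.06 to 0.08 without control replicate 1. BECN1 in co-treated over alcohol went from −0.05 to 0.14 without co-treated replicate 1. With only 2 libraries a group, a true difference of the size seen here, mostly below 1.5-fold, can be missed at this depth, and single libraries moved the counts of all genes called. The replicate numbers shared by the labels come with no named batch, and the deviations of same-numbered libraries correlated by 0.11, 0.04 and −0.02 in the 3 comparisons, so the numbers are not shown to pair the libraries. With the replicate block 48, 5 and 136 genes were called for alcohol over control, co-treated over alcohol and co-treated over control, against 10, 2 and 54 without it. In the same order DESeq2 called 72, 5 and 123 genes, no expression filter 2, 1 and 15, and only the libraries compared 3, 4 and 158. At least 10 counts in every library gave 26 and 0 genes for the first and second comparisons. limma on log2(FPKM + 1) called 0, 1 and 2 genes, and on log2(FPKM + 0.1) 2 for the first and 3 for the third. Leaving out each library in turn gave 1 to 220, 1 to 24 and 2 to 184 genes, the highest each time without alcohol replicate 1. The lowest came without alcohol replicate 2 for alcohol over control and without co-treated replicate 2 for the others. The median of the members without an expression filter was 0.14 for alcohol over control and −0.071 for co-treated over alcohol. With log2(FPKM + 1) it was 0.16 for alcohol over control and 0.14 for co-treated over control, and with log2(FPKM + 0.1) 0.17 and 0.14. The median over all genes was higher there too, at 0.030 and 0.036 with log2(FPKM + 1) and 0.035 and 0.042 with log2(FPKM + 0.1). Leaving out each library gave medians of 0.12 to 0.15, −0.064 to 0.0068 and 0.065 to 0.12, the sign of the second turning without co-treated replicate 1. The number of members with an unadjusted p under 0.05 ran over the alternatives from 5 to 9, 3 to 4 and 2 to 4. The share of all genes at that p ran from 5.96 to 12.6%, 2.35 to 6.52% and 6.91 to 14.1%. Fits with 1 library in a group are left out of these ranges. Without alcohol replicate 2, the library lowest in glycolysis genes, 33 of 43 members lay above 0 for alcohol over control. For co-treated over alcohol 23 lay above 0 when the first co-treated library was dropped, and 16 when the second was. The causes were not tested.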
